A study of Mus musculus with 4 samples.

Results

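Chemokines are small secreted proteins that steer migrating cells, and their receptors are G protein-coupled receptors on the cells that follow them. They are grouped by the spacing of conserved cysteines into CC, CXC and CX3C families, and the names of ligands end in l and those of receptors in r. In bone marrow Cxcl12 holds progenitors in place through Cxcr4, Ccr2 is needed for monocytes to leave, and Cxcr2 with its ligands Cxcl1 and Cxcl2 releases neutrophils.

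Every gene whose platform symbol starts with Ccl, Cxcl, Ccr, Cxcr, Cx3cl or Cx3cr and a number was taken, with no use of its values. This gave 48 genes of the 18193 named on the array, 32 ligands and 16 receptors, measured by 76 probe sets. A further 4 probe sets carried several symbols that included one of these names and were left out.

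RNA had been measured on Affymetrix mouse arrays in progenitors sorted from Trib1-/- mice and from wild-type mice, all unstimulated and all of a mixed C57BL6J/129SV background. The arrays were 4, with 1 array each for Trib1-/- MDP, wild-type MDP, Trib1-/- GMP and wild-type GMP. GMP are granulocyte monocyte progenitors, and the label MDP comes with the cell type macrophage dendritic cell. Trib1 encodes a pseudokinase that brings C/EBP transcription factors to a ubiquitin ligase, and the comparison of genotypes asks what its loss alters in each progenitor. The sources used here do not give the sort gates, the age, how many animals were pooled, the deleted part of Trib1 or the cells in which it was deleted. No group had a replicate, so no test and no p-value is given, and a difference cannot be set against the spread between animals or sorts.

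Values are the authors' RMA values, taken as log2, and a difference of 1 is 2-fold. Probe sets differ in how brightly they bind, so a value is compared between arrays and not between genes. Where a gene had several probe sets, the brightest on average stood for it. The median of the whole table, 3.29, served as the floor, and genes that reached it on at least 1 array were counted as apart where they differed at least 2-fold. In place of a replicate error, the spread between probe sets that target the same gene is given, and its SD over 4922 genes was 0.372 for the GMP genotypes, 0.383 for the MDP genotypes, 0.543 for the progenitors in wild type and 0.422 for the progenitors in Trib1-/-.

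The arrays had medians from 3.27 to 3.31. The 2 probe sets of Trib1 read 4.71 and 5.56 in Trib1-/- MDP, against 5.13 and 5.99 in wild-type MDP. They read 5.19 and 5.10 in Trib1-/- GMP, against 4.85 and 4.95 in wild-type GMP. The signal was thus not lower in the GMP array labelled Trib1-/-, the probe positions relative to the deletion are unknown, and the genotypes below are those of the labels. Of the markers of the sorted cells, GMP markers such as Elane and Ms4a3 were high on the GMP arrays, and Csf1r, Flt3 and Irf8 were higher on the MDP arrays. Kit, which marks the progenitor known as MDP, read 2.69 in Trib1-/- MDP and 2.43 in wild-type MDP, below the median of the table, against 5.39 in Trib1-/- GMP and 6.01 in wild-type GMP.

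Of the 48 genes, 23 reached the median of the table on at least 1 array (47.9%), against 64.1% of all named genes. All 4 arrays were at or above it for 18 genes (37.5%), against 50.9% of all named genes. Among the ligands 17 of 32 reached it. These were Ccl2, Ccl3, Ccl4, Ccl6, Ccl9, Ccl20, Ccl25, Ccl28, Cxcl1, Cxcl2, Cxcl9, Cxcl10, Cxcl11, Cxcl13, Cxcl16, Cxcl17 and Cx3cl1. For 5 of them some arrays lay below it: Ccl20 and Cxcl17 reached it on 1 array, Cxcl1 and Cx3cl1 on 2, and Cxcl10 on 3. Among the receptors 6 of 16 reached it, each of them on every array: Ccr1, Ccr2, Ccr9, Cxcr2, Cxcr4 and Cx3cr1.

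The remaining 25 genes stayed below the median on every array. The 15 ligands among them were Ccl1, Ccl5, Ccl7, Ccl8, Ccl11, Ccl12, Ccl17, Ccl22, Ccl24, Ccl27a, Cxcl3, Cxcl5, Cxcl12, Cxcl14 and Cxcl15, with values from 0.47 to 2.92. The 10 receptors were Ccr1l1, Ccr3, Ccr4, Ccr6, Ccr7, Ccr8, Ccr10, Cxcr3, Cxcr5 and Cxcr6, with values from 0.45 to 2.97. A probe set below the median can be a weak probe as well as a weakly expressed gene.

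**Figure D1:**
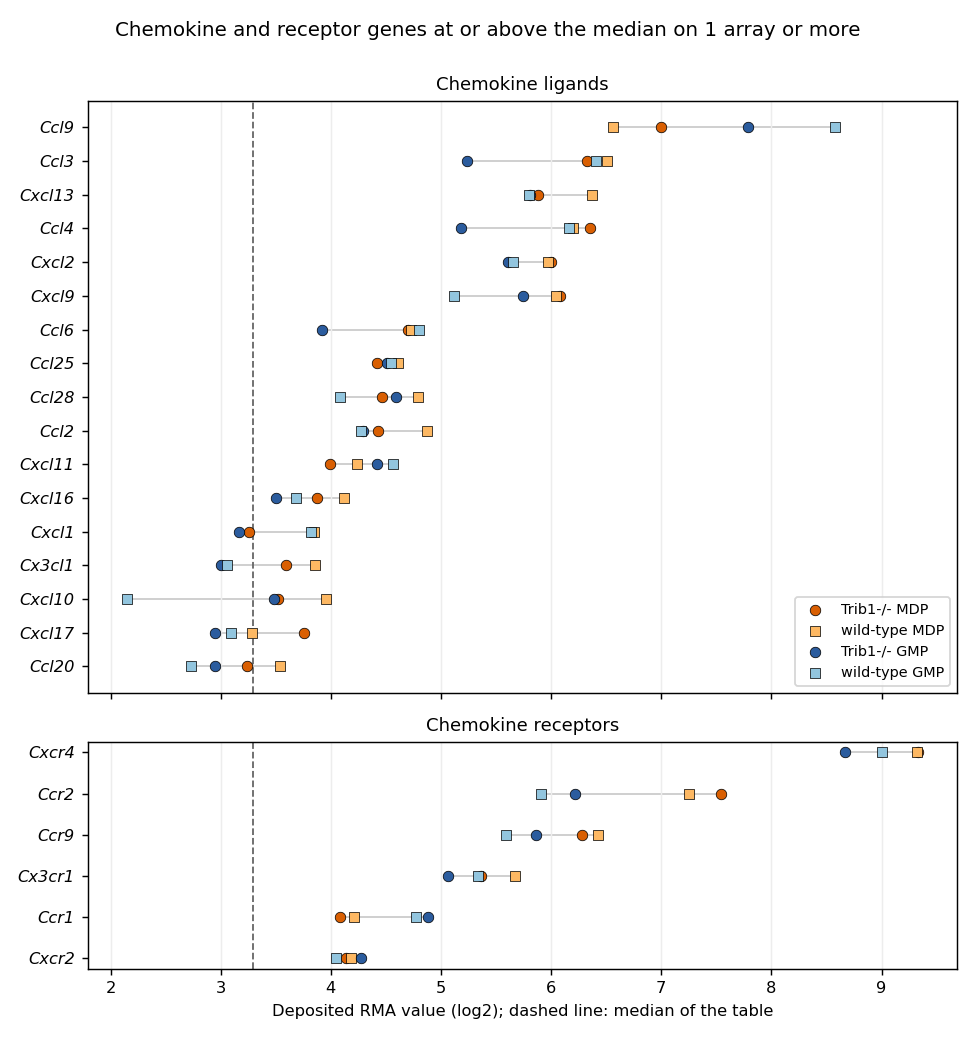
Deposited RMA values (log2, horizontal axis) of the 17 ligands and 6 receptors that reached the median of the table (dashed line, 3.29) on at least 1 array, with 1 point per array. Most genes span less than 1 unit over the 4 arrays, while Ccl9, Cxcl10, Ccr2, Ccl3 and Ccl4 span 2.02, 1.80, 1.64, 1.28 and 1.18.

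A pattern between genotypes in GMP was seen in 4 CC ligand genes that lie next to each other on chromosome 11: Ccl9, Ccl6, Ccl3 and Ccl4. No other protein-coding gene of the reference annotation (GRCm38.p6) lies between them. All 4 read lower in Trib1-/- GMP, where 55.2% of all genes tested did, and Ccl3 by more than 2-fold, where 3.16% did. Lower values were common on this array: at 1.5-fold, 1536 of the 11653 genes tested were lower and 615 higher. They were grouped after their values were seen. In bulk RNA, fewer cells of a type and less RNA per cell cannot be told apart.

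Ccl3, also known as macrophage inflammatory protein 1 alpha, is a ligand of Ccr1 and is known to restrain the division of early haematopoietic cells. It read 5.24 in Trib1-/- GMP, against 6.41 in wild-type GMP, a log2 difference of -1.17 or 2.25-fold. In MDP it read 6.33 in Trib1-/- and 6.51 in wild type. The low value was that of Trib1-/- GMP, with the other 3 arrays close together.

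Ccl4, macrophage inflammatory protein 1 beta, read 5.18 in Trib1-/- GMP, against 6.16 in wild-type GMP, a difference of -0.98 that fell just short of 2-fold. It read 6.35 in Trib1-/- MDP and 6.20 in wild-type MDP. Ccl4 therefore had the same single low array as Ccl3.

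Ccl6, a mouse CC chemokine that acts through Ccr1, read 3.92 in Trib1-/- GMP, against 4.80 in wild-type GMP (difference -0.89). In MDP it read 4.70 in Trib1-/- and 4.73 in wild type. Again 1 array stood below the other 3. The second Ccl6 probe set stayed below the median on every array and did not show this, at 1.45 in Trib1-/- GMP and 1.15 in wild-type GMP, so the mean of both gave -0.29.

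Ccl9, another mouse ligand of Ccr1, read 7.79 in Trib1-/- GMP, against 8.58 in wild-type GMP (difference -0.79). Its second probe set read 3.83 and 4.43 on the same arrays. In MDP the direction was the other one, with 7.0 in Trib1-/- and 6.56 in wild type, and 3.78 and 3.24 for the second probe set. Both probe sets of Ccl9 thus gave the same order of the genotypes within each progenitor.

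Of the other CC ligand genes of chromosome 11, Ccl5, the direct neighbour of Ccl9, and Ccl7, Ccl8, Ccl11, Ccl12 and Ccl1 were below the median on every array, where a direction cannot be read with any weight. Ccl1 read 2.04 in Trib1-/- GMP and 2.66 in wild-type GMP (difference -0.61), and the differences of Ccl7, Ccl5 and Ccl12 were -0.22, -0.09 and -0.09. Those of Ccl8 and Ccl11 were 0.11 and 0.25. Ccl2, the ligand of Ccr2 that draws monocytes out of the marrow, read 4.29 in Trib1-/- GMP and 4.27 in wild-type GMP, and 4.43 in Trib1-/- MDP and 4.87 in wild-type MDP.

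**Figure D2:**
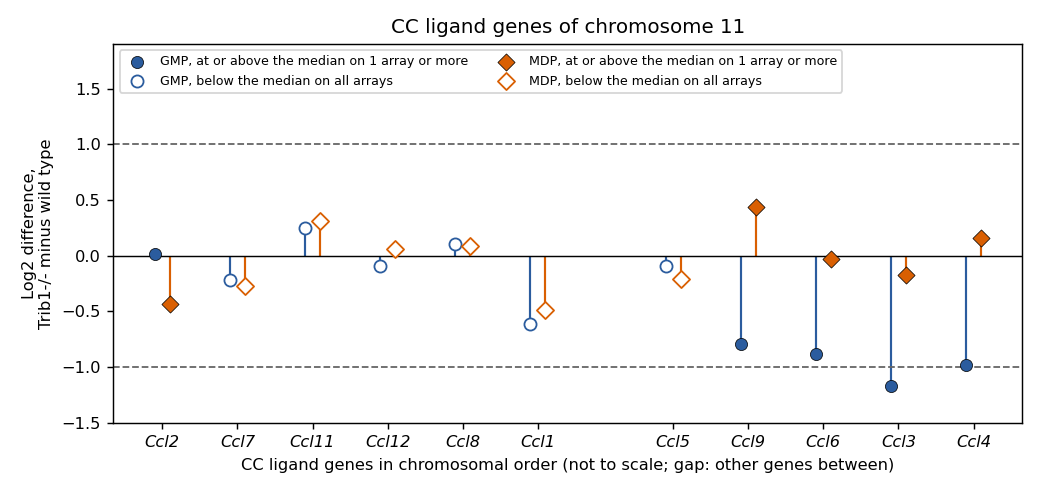
Log2 difference, Trib1-/- minus wild type (vertical axis), for the CC ligand genes of chromosome 11 in chromosomal order (horizontal axis, not to scale), with circles for GMP and diamonds for MDP, filled where the gene reached the median of the table on at least 1 array. The GMP differences of Ccl9, Ccl6, Ccl3 and Ccl4 are -0.79, -0.89, -1.17 and -0.98, and their MDP differences 0.44, -0.03, -0.18 and 0.15.

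The promoters of these genes are shown because Ccl3, Ccl6 and Ccl9 read lower together in Trib1-/- GMP and Trib1 acts on C/EBP factors. That of Cxcl10 is added as the gene that read higher. Each is the RefSeq window of 300 bases in GRCm38.p6, from 250 before to 50 after the annotated start, all on the minus strand and written in the direction of the gene. Ccl3 spans chr11:83649329-83649628, Ccl6 chr11:83593038-83593337, Ccl9 chr11:83578587-83578886 and Cxcl10 chr5:92348840-92349139. Capitals mark the motif matches described after the sequences.
Ccl3: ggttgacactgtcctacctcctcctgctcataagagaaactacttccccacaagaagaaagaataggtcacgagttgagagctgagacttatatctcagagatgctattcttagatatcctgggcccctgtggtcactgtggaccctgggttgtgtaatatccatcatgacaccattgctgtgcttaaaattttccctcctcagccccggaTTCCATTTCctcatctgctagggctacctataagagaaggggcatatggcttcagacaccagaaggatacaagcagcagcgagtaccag
Ccl6: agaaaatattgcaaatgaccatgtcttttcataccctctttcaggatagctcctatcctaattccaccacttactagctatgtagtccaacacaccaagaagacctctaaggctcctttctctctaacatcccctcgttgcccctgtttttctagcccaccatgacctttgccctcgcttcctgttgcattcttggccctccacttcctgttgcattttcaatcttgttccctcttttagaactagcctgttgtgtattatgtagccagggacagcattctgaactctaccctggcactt
Ccl9: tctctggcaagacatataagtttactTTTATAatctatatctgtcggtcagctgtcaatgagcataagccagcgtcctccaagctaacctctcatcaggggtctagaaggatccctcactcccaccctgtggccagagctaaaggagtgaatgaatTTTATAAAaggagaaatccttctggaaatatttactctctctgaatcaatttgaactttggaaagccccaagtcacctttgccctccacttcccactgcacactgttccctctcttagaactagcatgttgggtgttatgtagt
Cxcl10: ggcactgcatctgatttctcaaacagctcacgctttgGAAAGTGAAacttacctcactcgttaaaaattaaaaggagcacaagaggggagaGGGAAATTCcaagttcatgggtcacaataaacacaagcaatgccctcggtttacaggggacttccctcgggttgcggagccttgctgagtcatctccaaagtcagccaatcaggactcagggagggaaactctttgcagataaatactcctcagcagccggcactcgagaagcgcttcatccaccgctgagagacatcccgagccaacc

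The motifs, chosen after the values were seen, were searched on both strands of the windows of the 35 genes that had one in the table. They were C/EBP as TTGCNNAA, PU.1 as GAGGAAGT, NF-kB as GGGANNTTC, the interferon response element as GAAANNGAA and the TATA box as TATAAA. Of all 32851 promoter windows, 10.8% held the C/EBP letters, 3.20% the PU.1 letters, 3.94% the NF-kB letters, 8.56% the interferon element and 13.6% the TATA letters. The C/EBP and PU.1 letters were in none of the 4 windows shown. The Ccl6 window held none of the motifs, that of Ccl3 the interferon element on the other strand, 39 bases before the start, and that of Ccl9 TATA matches only, a pair of which overlap on opposite strands. Of the 35 genes, 2 held the C/EBP letters (Ccl27a and Cxcl13), 1 the PU.1 letters (Cxcr3), 6 the interferon element, 8 the NF-kB letters and 11 the TATA letters. The TATA letters were counted on either strand and at any distance from the start, so not each is a TATA box. The Cxcl10 window held the interferon element as GAAAGTGAA, 213 bases before the start, and the NF-kB letters as GGGAAATTC, 159 bases before it. Cxcl9, Cxcl10 and Ccl1 held both of these. Cxcl1, Cxcl2 and Cxcl3 held the same NF-kB word, GGGAATTTC, starting 71, 97 and 73 bases before the start, with an overlapping match on the other strand. The NF-kB and interferon letters were first searched with 1 further base at the end (C and A), and were shortened after those matches had been seen, which raised the counts. With the longer letters, 6 of the 35 genes held the NF-kB motif (Ccl1, Ccr3, Cxcl1, Cxcl2, Cxcl3 and Cxcl10), beside 1.47% of all windows. The interferon element was then in 2 (Cxcl10 and Cxcl14), beside 3.44% of all windows, and not in Ccl3, Cxcl9 or Ccl1. A match is only a description of the letters, and how many genes hold one depends on the form searched.

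Among the other ligands in GMP, Cxcl10, an interferon-induced ligand of Cxcr3, had the largest difference in the other direction. It read 3.48 in Trib1-/- GMP, against 2.15 in wild-type GMP, a difference of 1.33 or 2.51-fold. The wild-type value lay below the median of the table, and with such values raised to it the difference was 0.19. The low array was wild-type GMP, since Cxcl10 read 3.52 in Trib1-/- MDP and 3.96 in wild-type MDP.

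Cxcl9, a second interferon-induced ligand of Cxcr3 and a near neighbour of Cxcl10 on chromosome 5, read 5.74 in Trib1-/- GMP, against 5.12 in wild-type GMP (difference 0.62). Its MDP values were close together at 6.08 in Trib1-/- and 6.04 in wild type. The second Cxcl9 probe set, below the median on every array, read 0.90 in Trib1-/- GMP and 1.22 in wild-type GMP. Cxcl11, the last ligand of Cxcr3, read 4.42 in Trib1-/- GMP and 4.56 in wild-type GMP.

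Cxcl1 and Cxcl2, the neutrophil attractants, parted. Cxcl1 read 3.17 in Trib1-/- GMP, against 3.82 in wild-type GMP, and 3.26 in Trib1-/- MDP, against 3.85 in wild-type MDP. Among the 23 genes at or above the floor it had the lowest genotype difference in MDP (-0.59), and both Trib1-/- values lay below the median of the table. The other 2 Cxcl1 probe sets were higher in Trib1-/- MDP, so the mean of the 3 gave 0.25 there. Cxcl2 read 5.61 in Trib1-/- GMP and 5.65 in wild-type GMP, and 6.0 in Trib1-/- MDP and 5.97 in wild-type MDP.

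The remaining ligands differed by less in GMP. Ccl28, a mucosal ligand of Ccr10, read 4.59 in Trib1-/- GMP and 4.08 in wild-type GMP. Ccl20, the ligand of Ccr6, read 2.95 in Trib1-/- GMP and 2.73 in wild-type GMP, both below the median. Ccl25, the ligand of Ccr9, Cxcl13, which attracts B cells through Cxcr5, Cxcl16, which is made as a membrane protein, Cxcl17 and Cx3cl1 had differences between -0.18 and 0.01.

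On their brightest probe sets the receptors showed smaller genotype differences. In GMP they ran from -0.33 for Cxcr4 to 0.32 for Ccr2, each within the SD between probe sets. Cxcr4, the receptor of Cxcl12, read 8.67 in Trib1-/- GMP and 9.0 in wild-type GMP, and 9.33 in Trib1-/- MDP and 9.32 in wild-type MDP. Cx3cr1, the fractalkine receptor that is high on monocytes, read 5.06 in Trib1-/- GMP and 5.34 in wild-type GMP. It was also slightly lower in MDP, at 5.36 in Trib1-/- and 5.67 in wild type. Cxcr2, which guides neutrophils, read 4.27 in Trib1-/- GMP and 4.05 in wild-type GMP, and Ccr1 4.88 and 4.77 on the same arrays.

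Counted by size, 1 of the 23 genes was at least 2-fold higher in Trib1-/- GMP (Cxcl10), where 0.481% of the 11653 genes tested were, and 1 was at least 2-fold lower (Ccl3), where 3.16% were. Together they were 2 genes of 23, beside 3.64% of all genes. The median difference over the 23 genes was -0.04, and over all genes tested -0.06. In MDP 0 of the 23 were at least 2-fold apart, where 2.63% of all genes were (1.10% higher and 1.53% lower). Their median was -0.18, against 0.01 over all genes tested, with 16 of 23 below 0 (69.6%, against 48.5% of all genes tested). Over all 48 genes without a floor the MDP median was -0.15. In both progenitors 8 of the 23 genes read below 0 and 2 above 0, comparisons that have no array in common; over all genes tested the shares were 25.6% and 21.6%. Counts this small are no result about the family as a whole.

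**Figure D3:**
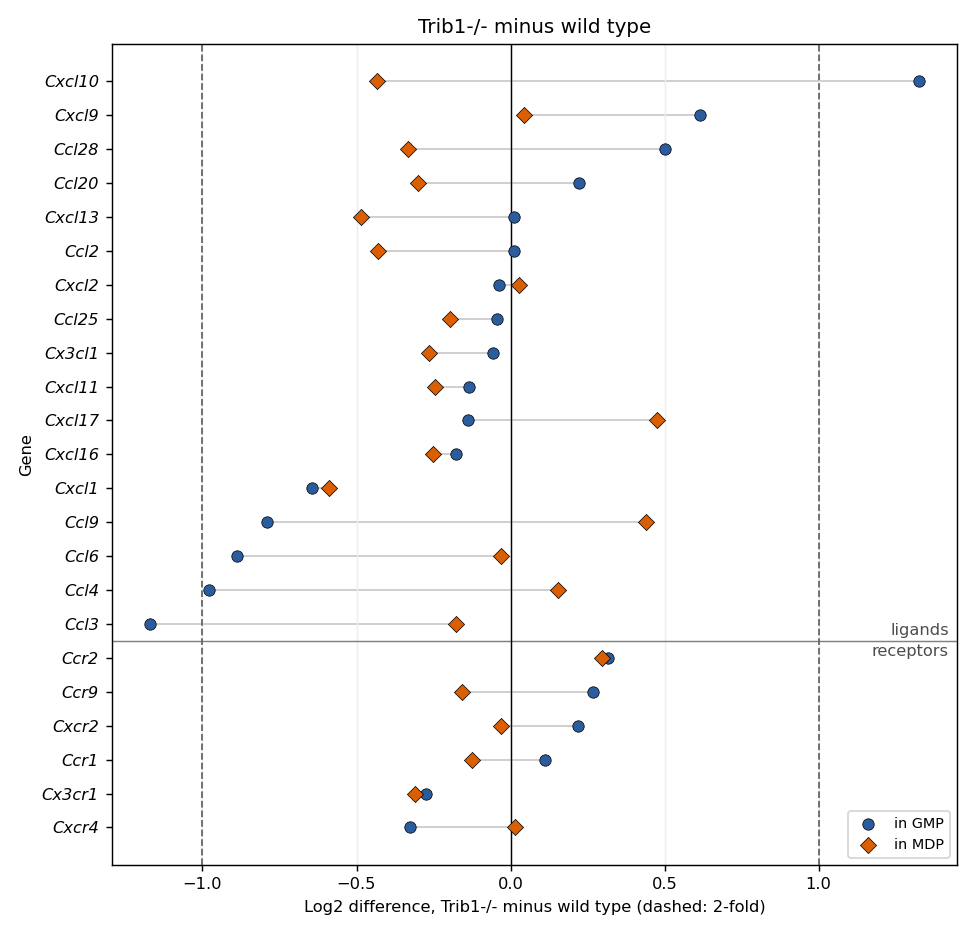
Log2 difference, Trib1-/- minus wild type (horizontal axis), for the 17 ligands (top) and 6 receptors (bottom), with circles for GMP and diamonds for MDP and dashed lines at 2-fold. Ccl3 at -1.17 and Cxcl10 at 1.33 in GMP lie past 2-fold, and in MDP the differences run from -0.59 (Cxcl1) to 0.47 (Cxcl17).

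In MDP, the differences beyond the SD between probe sets were those of 6 genes. Ccl2 (-0.43), Cxcl10 (-0.44), Cxcl13 (-0.49) and Cxcl1 (-0.59) read lower in Trib1-/-, while Ccl9 (0.44) and Cxcl17 (0.47) read higher. Cxcl13 read 5.88 in Trib1-/- MDP and 6.37 in wild-type MDP, and 5.81 in Trib1-/- GMP and 5.80 in wild-type GMP, so that wild-type MDP was the 1 array apart. Its second probe set did not show this, at 4.61 in Trib1-/- MDP and 4.92 in wild-type MDP, and 4.78 in Trib1-/- GMP and 4.40 in wild-type GMP. Cxcl17, known from mucosal tissues, read 3.76 in Trib1-/- MDP and 3.28 in wild-type MDP, and was below the median on both GMP arrays. Ccl28 read 4.46 in Trib1-/- MDP and 4.79 in wild-type MDP, Ccl25 4.42 and 4.61, and Cxcl16 3.87 and 4.12.

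Markers of some other cells moved with the genotype. No measured neutrophil, monocyte, B cell or T and NK cell marker that reached the median was at least 2-fold apart between genotypes. The same held for the dendritic cell and the megakaryocyte and platelet markers. Of the erythroid markers only Car2 was, lower in Trib1-/- MDP. Of all genes tested, 3.64% were apart in GMP and 2.63% in MDP. Of 7 basophil and mast cell markers 6 were measured, all at or above the median on both GMP arrays, and Mcpt8, Cpa3 and Hdc were at least 2-fold lower in Trib1-/- GMP, where 3.16% of all genes tested were. Their summed linear level was 197 in Trib1-/- GMP, against 451 in wild-type GMP, beside the lower values of Ccl3, Ccl4, Ccl6 and Ccl9 on the same array. Of 12 resident macrophage markers, 8 were at least 2-fold lower in Trib1-/- MDP, where 1.53% of all genes tested were, and 6 remained so with low values raised to the median (Fcna and C1qb did not). The summed level of the 12 was 156 in Trib1-/- MDP and 535 in wild-type MDP. Of these 12, 8 reached the median in Trib1-/- MDP and 10 in wild-type MDP. The part of either in the chemokine values was not tested. The members of the marker lists were chosen with these results known.

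Between the progenitors the differences were larger. The receptor Ccr2, which marks cells of the monocyte lineage, was higher in MDP in both genotypes. It read 7.54 in Trib1-/- MDP, against 6.22 in Trib1-/- GMP, a difference of 1.32 or 2.5-fold. In wild type it read 7.25 in MDP, against 5.91 in GMP (1.34, 2.53-fold). Both MDP arrays stood above both GMP arrays, and on this probe set the genotype differences were 0.32 in GMP and 0.30 in MDP. The monocyte markers, a list that includes Ccr2 and had 6 measured genes, moved with it: their summed linear level was 1360 in Trib1-/- MDP and 1300 in wild-type MDP, against 498 in Trib1-/- GMP and 462 in wild-type GMP, and their part in the Ccr2 values was not tested.

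Ccr2 had 4 probe sets, and they were not alike. The second brightest gave the same order, with 4.27 in Trib1-/- MDP, 3.81 in wild-type MDP, 2.75 in Trib1-/- GMP and 2.13 in wild-type GMP. Another read 4.58 in Trib1-/- MDP and 2.37 in wild-type MDP, against 1.82 in Trib1-/- GMP and 2.37 in wild-type GMP, so that only Trib1-/- MDP stood out. The fourth stayed below the median on every array. Averaged over the 4 probe sets the progenitor difference was 1.53 in Trib1-/- and 0.76, less than 2-fold, in wild type. The genotype difference averaged 0.79 in MDP, where the probe set that stood out differed by 2.21, and 0.02 in GMP.

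**Figure D4:**
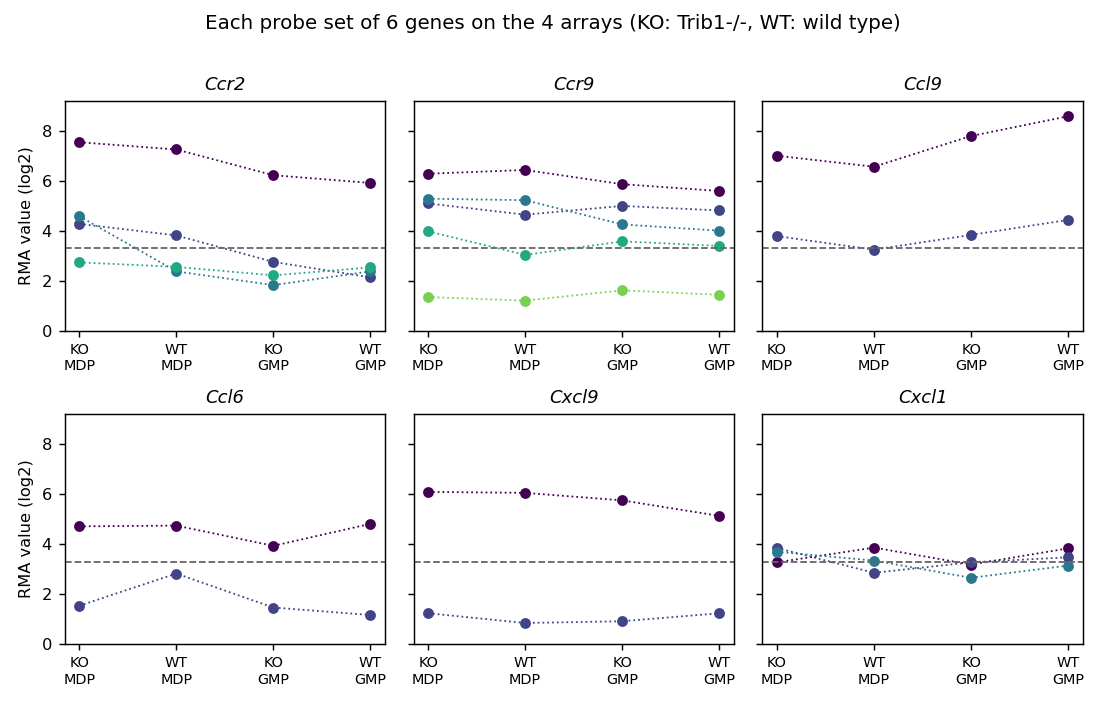
RMA values (log2, vertical axis) of every probe set of Ccr2, Ccr9, Ccl9, Ccl6, Cxcl9 and Cxcl1 on the 4 arrays (horizontal axis; KO is Trib1-/-, WT is wild type), with 1 line per probe set that only joins its points and the median of the table dashed. Both Ccl9 probe sets have the same order of arrays within each progenitor, while 1 Ccr2 probe set stands out in Trib1-/- MDP at 4.58.

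Of the 17 ligands at or above the floor, Ccl9 was the 1 at least 2-fold lower in MDP. In wild type it read 6.56 in MDP, against 8.58 in GMP, a difference of -2.02 or 4.05-fold. This was the largest difference among the brightest probe sets of the 48 genes. In Trib1-/- Ccl9 read 7.0 in MDP, against 7.79 in GMP (-0.79). The second probe set differed by -1.19 in wild type and by -0.055 in Trib1-/-. The GMP markers, of which 7 were measured, were also lower in MDP, with a summed linear level of 1260 in Trib1-/- MDP and 1330 in wild-type MDP, against 6560 in Trib1-/- GMP and 7420 in wild-type GMP. So were the basophil and mast cell markers, at 58.8 in Trib1-/- MDP and 72.6 in wild-type MDP, against 197 in Trib1-/- GMP and 451 in wild-type GMP. The part of either in the Ccl9 values was not tested.

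Ccl3 and Ccl4 were at least 2-fold higher in MDP than in GMP in Trib1-/-, and close to equal in wild type. Ccl3 differed by 1.10 in Trib1-/- and by 0.11 in wild type, and Ccl4 by 1.18 and 0.04. These values use the same low Trib1-/- GMP array as the genotype differences above and add no separate evidence for it. Ccl6 differed by 0.79 in Trib1-/- and by -0.07 in wild type. Whether the progenitor difference depends on genotype was not tested, since no group had a replicate.

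Cxcl10 was 3.49-fold higher in wild-type MDP than in wild-type GMP (difference 1.80), and differed by 0.04 in Trib1-/-. With values below the median raised to it, the wild-type difference was 0.67, below 2-fold. Cxcl9 differed by 0.34 in Trib1-/- and by 0.92 in wild type. Wild-type GMP was the lowest array for both.

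The receptors other than Ccr2 differed by less. Ccr9, known for homing to thymus and gut and for plasmacytoid dendritic cells, read 6.28 in Trib1-/- MDP and 5.86 in Trib1-/- GMP, and 6.43 in wild-type MDP and 5.59 in wild-type GMP. Of its other probe sets at or above the median, 1 had a wild-type difference of 1.22 and the remaining 2 differences below 0. Ccr1, the receptor of Ccl3, Ccl6 and Ccl9, was lower in MDP, at 4.08 in Trib1-/- MDP and 4.88 in Trib1-/- GMP, and at 4.21 in wild-type MDP and 4.77 in wild-type GMP. Its second probe set, below the median on every array, read higher in MDP, by 0.27 in Trib1-/- and 0.46 in wild type, and the mean of both probe sets gave -0.26 and -0.05. Of the 6 receptors at or above the floor, Ccr1 was the 1 whose brightest probe set read lower in MDP in both genotypes. Cxcr4 differed by 0.66 in Trib1-/- and 0.32 in wild type, Cx3cr1 by 0.30 and 0.34, and Cxcr2 by -0.13 and 0.13.

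Cx3cl1, the membrane-bound ligand of Cx3cr1, read 3.59 in Trib1-/- MDP and 3.0 in Trib1-/- GMP, and 3.86 in wild-type MDP and 3.06 in wild-type GMP. It reached the median on the MDP arrays alone, and its other 3 probe sets were below the median on every array. Ccl20 reached the median on the wild-type MDP array alone, at 3.54. Ccl2 differed between MDP and GMP by 0.15 in Trib1-/- and 0.59 in wild type.

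By the size rule 3 of the 23 genes were at least 2-fold higher in Trib1-/- MDP than in Trib1-/- GMP (Ccl3, Ccl4 and Ccr2), where 2.75% of all genes were. None was lower, where 4.08% were. In wild type 2 were higher in MDP (Ccr2 and Cxcl10), where 4.16% of all genes were, and 1 was lower (Ccl9), where 12.4% were. The median difference was 0.30 in Trib1-/- and 0.32 in wild type, against -0.01 and -0.04 over all genes tested.

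Below 2-fold, most members leaned to MDP. Of the 23 genes, 17 read higher in MDP in Trib1-/- (73.9%) and 19 in wild type (82.6%), where 48.4% and 47.2% of all genes tested did. These comparisons have no array in common, and 16 genes were higher in MDP in both (69.6%, against 31.4% of all genes tested). Among the 16, Ccl20, Cxcl17 and Cx3cl1 reached the floor on MDP arrays alone, so the floor favoured their direction. Over all 48 genes without a floor, 30 were higher in both (62.5%, against 31.7% of all named genes). The 3 of the 23 genes lower in MDP in both were Ccl9, Cxcl11 and Ccr1, though the second probe sets of Cxcl11 (0.08 in Trib1-/- and 0.24 in wild type) and Ccr1 read higher there. Most of these differences lie within the SD between probe sets, at 13 of 23 in Trib1-/- and 12 of 23 in wild type, and many concern weak signals. Wild-type MDP held the highest value of 10 ligands and 2 receptors. This count was not made over all genes, so it cannot be called unusual and adds nothing to the lean. The hybridisation controls BioB and BioC, 10 probe sets, also read higher on the MDP arrays, by 0.15 in Trib1-/- and 0.63 in wild type. Between genotypes they differed by 0.37 in GMP and by -0.12 in MDP. Their part in the chemokine values was not tested.

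**Figure D5:**
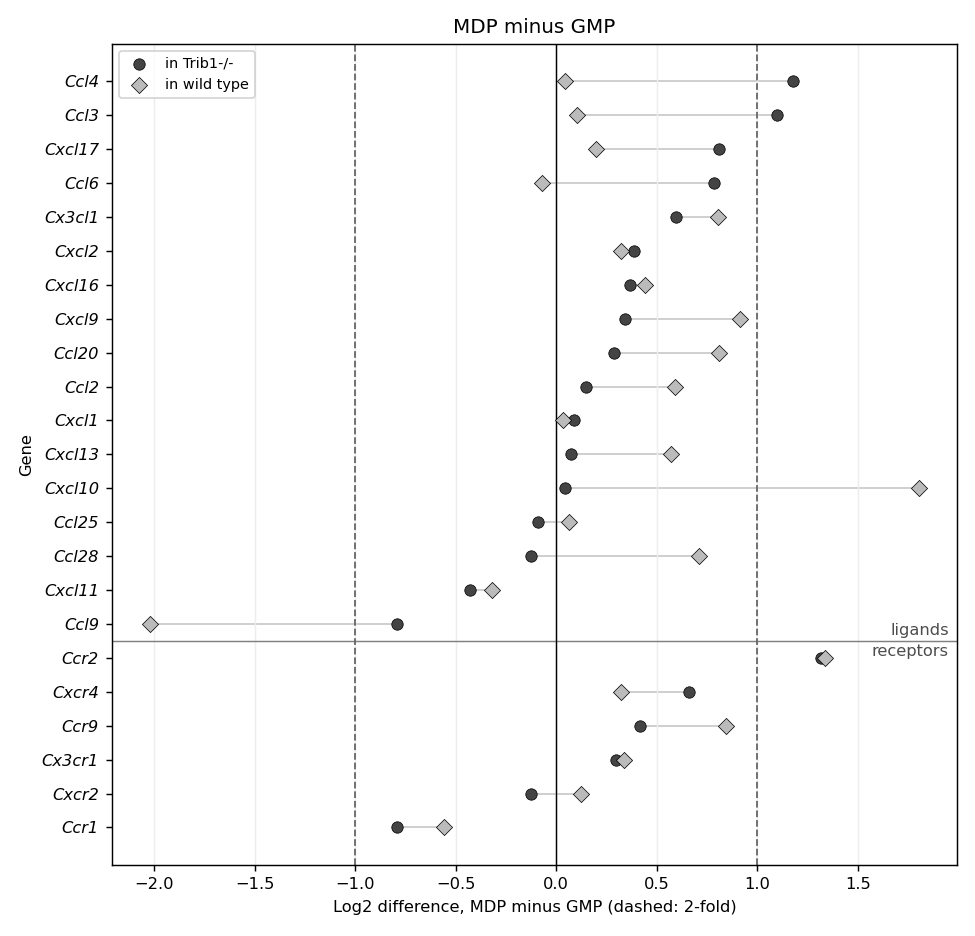
Log2 difference, MDP minus GMP (horizontal axis), for the 17 ligands (top) and 6 receptors (bottom), with circles for Trib1-/- and diamonds for wild type and dashed lines at 2-fold. Ccr2 lies past 2-fold in both genotypes (1.32 and 1.34), Ccl9 at -2.02 and Cxcl10 at 1.80 in wild type, and Ccl3 and Ccl4 at 1.10 and 1.18 in Trib1-/-.

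Related genes outside the symbol rule were read from lists chosen with earlier results known. Of 19 further ligands, decoy receptors and chemoattractant receptors, 18 were measured and 9 reached the median, where 64.1% of all named genes did. None was at least 2-fold apart between genotypes, where 3.64% of all genes tested were in GMP and 2.63% in MDP. Counts this small are no result about the list. Dpp4, a surface peptidase that trims chemokines, was the 1 gene at least 2-fold higher in MDP. Of all genes tested, 2.75% were so in Trib1-/- and 4.16% in wild type. Dpp4 read 8.43 in Trib1-/- MDP and 6.68 in Trib1-/- GMP, and 7.99 in wild-type MDP and 6.82 in wild-type GMP. Of its other probe sets, the 1 that reached the median differed by 0.44 in Trib1-/- and 0.58 in wild type. The platelet chemokines Pf4 and Ppbp, the decoy receptors Ackr2 and Ackr3 and the receptor Xcr1 stayed below the median on every array. Ackr4, a scavenger of CC chemokines, read 3.81 in Trib1-/- GMP and 4.46 in wild-type GMP on its brightest probe set. Another Ackr4 probe set above the median was higher in Trib1-/- GMP, at 4.29, against 3.97 in wild-type GMP. The remaining Ackr4 probe set, below the median on every array, was also higher there, at 2.11 against 1.70. No direction is therefore read for Ackr4.

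Of 34 signalling genes downstream of these receptors 31 were measured and 29 reached the median, where 64.1% of all named genes did. In Trib1-/- GMP 0 were at least 2-fold higher, where 0.481% of all genes tested were, and 3 were lower, where 3.16% were. The list median was -0.34, against -0.06 over all genes tested. These 3 were Rgs1 (-1.58) and Rgs19 (-1.03), which speed up the shut-off of G proteins, and Pik3r5 (-1.08), a regulatory subunit of PI3K gamma. The second Rgs19 probe set, above the median on every array, differed by -0.30. Pik3r5 read 3.19 in Trib1-/- GMP, below the median of the table, and 4.27 in wild-type GMP, and with low values raised to the median it differed by -0.98, less than 2-fold. Rgs1 read 4.53 in Trib1-/- GMP, against 6.11 in wild-type GMP, and 3.99 in Trib1-/- MDP and 4.55 in wild-type MDP. No signalling gene was at least 2-fold apart between the MDP genotypes, where 2.63% of all genes tested were.

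Between progenitors in Trib1-/-, Gng2 (1.84), Prex1 (1.64), Jak2 (1.32) and Pik3r5 (1.02) were higher and Arrb1 (-1.09) was lower in MDP, where 2.75% of all genes tested were higher and 4.08% lower. Arrb1, which read 2.85 in Trib1-/- MDP, and Pik3r5 owe this to values below the median, and with these raised to it they differed by -0.65 and 0.92. In wild type Gng2 (1.38) was higher and Gnai3 (-1.68), Rgs1 (-1.56) and Rgs18 (-1.26) were lower in MDP, where 4.16% of all genes tested were higher and 12.4% lower. On its brightest probe set Gng2, a G protein gamma subunit, was thus the 1 signalling gene past 2-fold in both genotypes. Of its other probe sets that reached the median, 1 differed by 1.154 in Trib1-/- and 1.275 in wild type, and 1 by 0.83 and 0.61. A second Jak2 probe set that reached the median differed by 0.37 in Trib1-/-, and a second 1 of Rgs18 by -1.39 in wild type.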

How the data were processed

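RNA from 4 sorted progenitor samples was hybridised to Affymetrix mouse arrays, 1 array per group. RNA was isolated with Trizol and turned into biotinylated cRNA by the NuGEN Ovation system, per the labels' protocols. The authors made the values by RMA, per the submitters' processing notes, which corrects background, gives all arrays a like distribution and summarises probe sets; the sources used here do not give its version. The scale of the deposited values was inferred to be log2 from their range, since the file does not state it. RMA hides differences in total RNA per cell, and values near the background have uncertain folds.

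Of 45101 probe sets, 34945 had 1 gene symbol in the platform annotation, 932 several and 9160 were not listed, and 64 were controls. Python 3.11.15 with pandas 2.3.3 formed the 4 differences, and limma 3.58.1 in R 4.3.3 the cyclic loess (3 iterations). The calculation was tested on simulated data. The number of arrays limits the precision. Of the 48 genes, those that reached the median of the table on at least 1 array are given with their values, in most cases on every array, and the others by name and range. Companion genes at least 2-fold apart are named, and a few others were chosen after their values were seen. The symbol rule used no values, but the rule and the lists were chosen with earlier results of these data known. In addition, 2 promoter motifs were shortened by 1 base after their matches had been seen (both forms are given). As alternatives, the floor was dropped or set to the 75th percentile (4.78), and the others were raising low values to the floor, the mean of probe sets, leaving out probe sets that may bind several transcripts, cyclic loess, median centring, adding 32 to linear values, and size rules of 1.5-fold and 4-fold.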

Additional observations from a re-analysis of the deposited data

Results flagged for a closer look

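The genotype difference ran in opposite directions in the progenitors for 2 genes, with both differences above the SD between probe sets. Ccl9 differed by -0.79 in GMP and by 0.44 in MDP, and its second probe set went the same way in each. Cxcl10 differed by 1.33 in GMP and by -0.44 in MDP, on 1 probe set. Its wild-type GMP value lay below the median of the table. With such values raised to the median its GMP difference was 0.19, within the SD of 0.372. The difference between the progenitors was not tested, since each value rests on 1 array per group.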

How the results depend on the processing

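No paired analysis was possible because each group has 1 array. Cyclic loess and median centring left every count of chemokine genes as it was. Leaving out probe sets that may bind several transcripts could not change these counts. None of the brightest probe sets of the 23 genes at or above the floor is of that kind. The number that reached the floor was 14 with the floor at the 75th percentile and 20 with the mean of probe sets, against 23. Of the 18193 named genes 6925 and 9826 did. Genes apart between the GMP genotypes, 2 in the report, were 3 without a floor, with Ccl22 added. They were 1 with the higher floor and 1 with low values raised to the median (Ccl3 in both cases). With 32 added to linear values they were 0, and they were 7 at 1.5-fold and 0 at 4-fold. Between the MDP genotypes 1 gene was apart at 1.5-fold (Cxcl1), against 0. Between progenitors in Trib1-/-, 3 in the report, the count was 1 with 32 added (Ccr2), 9 at 1.5-fold and 0 at 4-fold. In wild type, also 3, the count was 2 with the higher floor, 2 with low values raised (Ccr2 and Ccl9 in both cases) and 2 with the mean of probe sets (Cxcl10 and Ccl9). It was 1 with 32 added (Ccl9), 9 at 1.5-fold and 1 at 4-fold (Ccl9). At 1.5-fold, of the 11653 genes tested, 615 were higher and 1536 lower in Trib1-/- GMP than in wild type, and 834 and 887 in Trib1-/- MDP. Between progenitors, 1184 were higher and 1480 lower in MDP in Trib1-/-, and 1850 and 2892 in wild type. The size rules and the floor change counts by their construction, and the cause of the other changes was not tested. With 32 added, Ccl3 differed by -0.74 in GMP and Cxcl10 by 0.24. Of 552 values of the 23 genes under these alternatives, 521 lay within the SD between probe sets of the value reported, 31 moved further, and 0 of the differences of at least 2-fold changed sign. The 521 include values that an alternative could not alter, among them all 92 without probe sets that may bind several transcripts.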

Other observations

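Some genes below the median of the table on every array had large differences. Ccl22, a ligand of Ccr4, read 0.67 in Trib1-/- GMP and 2.0 in wild-type GMP, a difference of -1.33. Cxcl14 read 1.82 in Trib1-/- GMP and 2.76 in wild-type GMP, and 2.02 in Trib1-/- MDP and 2.80 in wild-type MDP. Cxcr6, the receptor of Cxcl16, read 1.41 in Trib1-/- MDP and 0.74 in wild-type MDP, and 1.23 in Trib1-/- GMP and 0.74 in wild-type GMP, and its second probe set did not repeat this, at 0.88, 1.01, 0.84 and 0.94 in the same order of arrays. At these levels the differences were not read further.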
